A study of Homo sapiens with 8 samples.

Results

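The regions described here are narrow peaks of antibody-recovered RNA that lie outside every annotated gene and carry many reads. They were chosen from a common set of 31395 peak intervals as those under 1000 bp wide (end minus start) that overlap no gene span on GRCh38, lie outside the ribosomal RNA gene block at chr21:8205988-8446572 and have a mean raw count of at least 100 over the 4 libraries. This left 961 peaks, or 3.06% of all intervals, out of 11124 narrow peaks outside genes at any count. The count limit and the positions chose them, so their level is a description and is not tested.

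The study profiled N4-acetylcytidine (ac4C) in 2 human osteosarcoma cell lines, 143B and HOS, and 143B is itself a derivative of HOS. The groups were 143B sgNAT10 (NAT10 knockout), 143B NC (control), HOS sgNAT10 (NAT10 knockout) and HOS NC (control), with 1 acRIP library each. In acRIP, fragments of poly(A)-selected RNA are pulled down with an anti-ac4C antibody and sequenced. Whether each knockout line is 1 clone or a pool was not stated, and with 1 library per group the 2 lines are the only repeats.

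ac4C is an acetylated form of cytidine, and NAT10 is the enzyme that writes it on ribosomal and transfer RNA and, as reported, on messenger RNA. Cytidine in the ribosomal RNA of the small subunit is its best established substrate, and the ribosomal RNA genes sit in repeated arrays on the short arms of the acrocentric chromosomes. Reads outside annotated genes can come from unannotated transcripts, from antisense or readthrough RNA, or from repeats such as satellites around centromeres, where short reads are hard to place uniquely.

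Of the 961 peaks, 6 reached into a 300-base promoter window (250 bases before to 50 after an annotated start) in a RefSeq table for GRCh38.p14 with 35116 such windows. These windows are shown because they are where sequence under the peaks could be read. Each line gives a window 5′ to 3′ on the gene's strand, and capitals mark the bases that the peak covers.
SPRED1, plus strand, chr15:38252586-38252885: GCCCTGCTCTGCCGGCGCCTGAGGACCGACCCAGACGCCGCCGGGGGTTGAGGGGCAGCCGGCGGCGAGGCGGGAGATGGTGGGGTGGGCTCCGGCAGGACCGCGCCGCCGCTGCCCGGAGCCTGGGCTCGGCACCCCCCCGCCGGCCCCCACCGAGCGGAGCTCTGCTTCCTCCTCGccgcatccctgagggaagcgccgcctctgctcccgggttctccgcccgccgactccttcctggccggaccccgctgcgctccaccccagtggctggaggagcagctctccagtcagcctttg
LINC02076, plus strand, chr17:18410909-18411208: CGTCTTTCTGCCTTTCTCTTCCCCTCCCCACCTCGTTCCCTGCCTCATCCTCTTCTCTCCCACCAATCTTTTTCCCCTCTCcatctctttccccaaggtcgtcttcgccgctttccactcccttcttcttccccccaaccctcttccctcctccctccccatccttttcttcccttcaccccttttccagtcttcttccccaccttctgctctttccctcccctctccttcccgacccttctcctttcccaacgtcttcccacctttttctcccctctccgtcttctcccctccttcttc
LINC01970, minus strand, chr17:82292765-82293064: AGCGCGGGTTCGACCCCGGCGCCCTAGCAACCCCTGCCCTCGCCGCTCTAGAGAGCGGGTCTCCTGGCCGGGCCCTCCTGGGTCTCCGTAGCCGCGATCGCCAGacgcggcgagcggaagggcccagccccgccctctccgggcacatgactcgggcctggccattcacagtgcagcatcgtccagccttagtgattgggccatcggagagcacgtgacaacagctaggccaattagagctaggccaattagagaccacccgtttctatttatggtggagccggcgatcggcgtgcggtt
C18orf63, plus strand, chr18:74315589-74315888: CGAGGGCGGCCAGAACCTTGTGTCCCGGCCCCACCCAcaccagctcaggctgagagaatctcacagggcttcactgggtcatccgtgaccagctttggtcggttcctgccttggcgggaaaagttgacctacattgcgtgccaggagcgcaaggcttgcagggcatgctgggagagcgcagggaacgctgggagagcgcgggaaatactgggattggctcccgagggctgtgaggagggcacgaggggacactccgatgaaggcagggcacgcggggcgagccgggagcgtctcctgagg
LOC124904336, plus strand, chr18:79952559-79952858: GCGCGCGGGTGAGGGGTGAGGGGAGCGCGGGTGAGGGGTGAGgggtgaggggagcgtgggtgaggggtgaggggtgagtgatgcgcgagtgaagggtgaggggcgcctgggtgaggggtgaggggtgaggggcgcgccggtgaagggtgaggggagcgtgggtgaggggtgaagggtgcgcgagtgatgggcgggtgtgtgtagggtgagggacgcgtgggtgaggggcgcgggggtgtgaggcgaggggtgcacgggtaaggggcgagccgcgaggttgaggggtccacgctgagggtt
NME8, plus strand, chr7:37848347-37848646: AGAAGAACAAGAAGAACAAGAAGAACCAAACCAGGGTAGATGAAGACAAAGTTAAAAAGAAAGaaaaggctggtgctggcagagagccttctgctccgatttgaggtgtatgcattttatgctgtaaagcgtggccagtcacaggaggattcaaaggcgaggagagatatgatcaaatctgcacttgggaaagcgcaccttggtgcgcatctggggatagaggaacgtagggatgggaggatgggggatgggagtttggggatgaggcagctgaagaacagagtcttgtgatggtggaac

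The 6 windows differ in composition, and the peaks covered 505 of their bases in all. The SPRED1 window was 76.3% G or C, against a median of 58.67% over all windows, and its 178 covered bases held 23 copies of CCG or CGG (the same triplet read on either strand). CCG or CGG occurs in 88.1% of all windows, with a median of 9.0 copies per window. The LINC02076 window was 89.0% C or T on the gene's strand, and only 0.0256% of all windows leaned as far to one side, toward C and T or toward A and G. The LOC124904336 window held 16 copies of GGGTGAG on 1 strand, a count reached by 0.00285% of windows, whereas 7.55% of windows held the motif at least once on either strand. In the NME8 window the 63 covered bases were 82.5% A or G. These are descriptions of letters in the windows and say nothing of which bases were acetylated.

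A second pair of sequences comes from chromosome 21, where the highest peaks lie near the ribosomal RNA genes. The sequence under those peaks was not read, and neither hairpin lies under them. The hairpin of the microRNA MIR10396A at chr21:8987617-8987665 lies 64 bp from the peak at chr21:8987729-8988039. It shares a run of 48 bases, in capitals below, with MIR10396B at chr21:8436324-8436374, which lies within the RNA45SN1 ribosomal RNA gene. Both hairpins are from RefSeq.
MIR10396A: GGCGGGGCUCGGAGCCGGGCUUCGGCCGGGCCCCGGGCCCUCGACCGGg
MIR10396B: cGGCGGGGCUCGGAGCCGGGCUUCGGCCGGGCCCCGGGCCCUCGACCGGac

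The 4 libraries held 20107718 to 24785306 counts over all peaks. The peaks outside genes took 24.61% of them in 143B sgNAT10 and 21.45% in 143B NC, and 18.11% in HOS sgNAT10 and 14.98% in HOS NC. The mesenchymal genes VIM, SPARC and CD44 had at least 100 counts in every library, 3 of 9 on the list, while 5 of the 9 (COL1A1, COL1A2, FN1, THY1 and TWIST1) had no peak. Among epithelial genes KRT8 and KRT18, 2 of 5, reached 100 in every library, and of 4 blood genes none did. The epithelial gene CDH1, with 15 peaks, had 7 counts in 143B sgNAT10 and 30 in 143B NC, and 812 in HOS sgNAT10 and 5 in HOS NC. The single peak on NAT10 itself had 130 counts in 143B sgNAT10 and 65 in 143B NC, and 63 in HOS sgNAT10 and 180 in HOS NC, but the guide's target is not given in the sources used here and this peak does not check the labels. The counts used here are of pulled-down RNA alone, so more ac4C per transcript and more transcript cannot be told apart.

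The peaks were unevenly placed. Chromosome Y held 266, chromosome 10 held 67, chromosome 17 held 64 and chromosome 16 held 58, and 16 chromosomes held at least 20 each. Joining peaks with gaps of at most 200 kb gave 443 stretches. Of the peaks, 374 stood alone, 106 lay in 50 stretches of 2 to 4, and 481 lay in 19 stretches of 5 or more. The nearest gene was 6 to 3610239 bp away, with a median of 29244 bp, and was most often a pseudogene (524 peaks), a long noncoding RNA gene (208) or a protein-coding gene (185). Widths ran from 95 to 991 bp with a median of 263 bp. A width of exactly 108 bp occurred 50 times.

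The stretch at chrY:10628681-11742653, on the long arm of chromosome Y beside the centromere, held 246 of the 961 peaks. Whether either line carries a chromosome Y was not checked here, so chromosome Y names only where reads were placed. Its peaks had a median of 11329 counts in 143B sgNAT10 and 8035 in 143B NC, and of 6584.5 in HOS sgNAT10 and 4298 in HOS NC. This stretch alone took 13.93% of all counts in 143B sgNAT10 and 10.5% in 143B NC, and 8.61% in HOS sgNAT10 and 4.58% in HOS NC. By contrast, the 374 peaks that stood alone together took 0.601% in 143B sgNAT10 and 0.548% in 143B NC, and 0.714% in HOS sgNAT10 and 0.515% in HOS NC. Most of the counts in these peaks were thus in a few places.

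Many neighbouring peaks in these stretches had almost the same counts. Of 473 pairs of members next to each other, 183 (38.69%) had counts within 5% of each other in all 4 libraries. Among 3412 pairs of gene-overlapping narrow peaks of mean count 100 or more, 5 (0.15%) did. Among peaks with a mean of 1000 or more and gaps of at most 10000 bp, the figures were 172 of 232 pairs outside genes (74.14%) and 0 of 196 pairs over genes. In all, 255 peaks were in such a pair, and 36 runs of at least 3 held 183 peaks. The longest, at chrY:11649909-11659338, had 14 peaks of 123 to 767 bp. Its counts were 12279 to 12757 in 143B sgNAT10 and 8783 to 9121 in 143B NC, and 6987 to 7230 in HOS sgNAT10 and 4619 to 4847 in HOS NC. The counts did not follow the width of the peak, although widths differed widely. How reads that map to several places were counted is not given in the sources used here, and its part in the near-equal counts was not tested. Peaks within a run are therefore not separate observations.

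The 12 peaks with the highest mean count lay beyond RNA45SN1 on chromosome 21, in the stretch chr21:8452026-9009399. The peak at chr21:8452026-8452664, 5454 bp from RNA45SN1, had 62689 counts in 143B sgNAT10 and 65060 in 143B NC, and 68706 in HOS sgNAT10 and 129674 in HOS NC. The peak at chr21:8864615-8864794, in the last part of the same plateau and 12333 bp from the pseudogene ANKRD20A16P, had 59167 and 59858 in 143B sgNAT10 and 143B NC, and 65984 and 126914 in HOS sgNAT10 and HOS NC. Their widths were 638 and 179 bp. The other 10 of the 12 had 59084 to 61126 in 143B sgNAT10 and 59836 to 61981 in 143B NC, and 65979 to 68174 in HOS sgNAT10 and 126960 to 129231 in HOS NC. HOS NC was thus the highest library at both ends, and the 143B libraries were close to each other. The peak next to MIR10396A at chr21:8987729-8988039 had less, 25828 in 143B sgNAT10 and 23321 in 143B NC, and 31083 in HOS sgNAT10 and 55242 in HOS NC. The last peak of the stretch, at chr21:9009289-9009399, had 211 in 143B sgNAT10 and 105 in 143B NC, and 119 in HOS sgNAT10 and 151 in HOS NC.

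**Figure D1:**
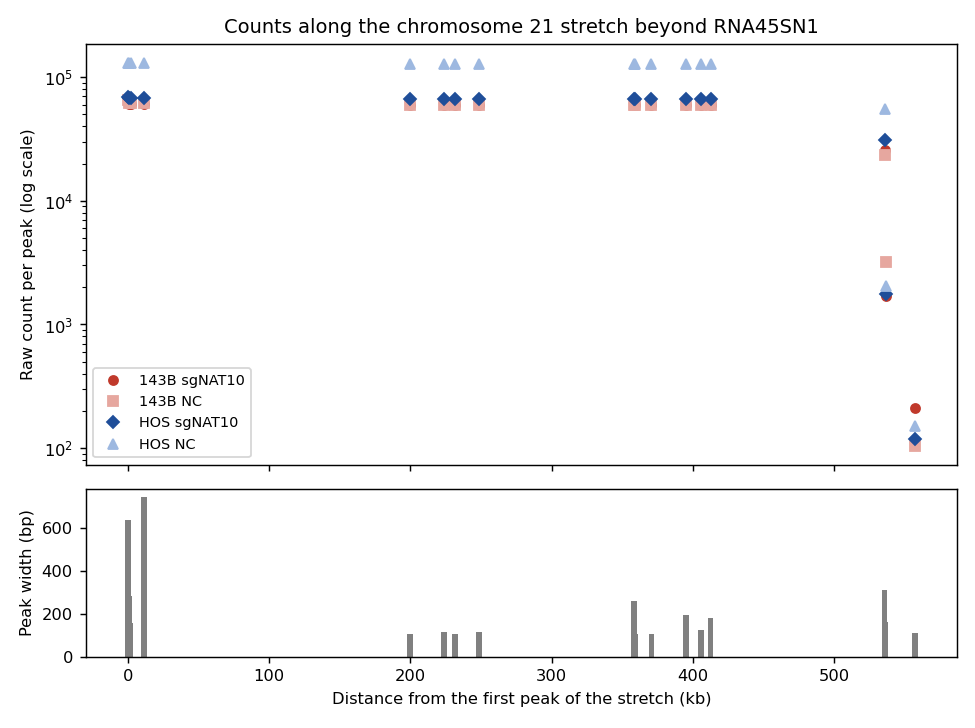
Raw counts of the 17 peaks of the chromosome 21 stretch (top, log scale) and their widths in bp (bottom) by distance in kb from the first peak, 1 point per library. The counts form a plateau, highest in HOS NC (median 126968), over peaks of very different width, and are lower at the far end.

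Knockout and control libraries were compared as the difference in log2 CPM (counts scaled to library size), sgNAT10 minus NC, with a prior count of 1 and TMM scaling. Across all 961 peaks the median shift was -0.04 in 143B and 0.28 in HOS. Peaks of mean count 100 or more of any kind, 5938 in all, had medians of -0.44 in 143B and 0.01 in HOS. Narrow ones that overlap genes, 4048 of them, had -0.61 and -0.32. The sign in 143B depends on scaling, since that median was 0.17 under upper quartile scaling and 0.30 when only totals were used, whereas the HOS median was above 0 under each scaling. In HOS 75.65% of the peaks were higher in sgNAT10, and in 143B 40.58% were, against 50.4% and 36.8% of all peaks of that count. The HOS share was 92.72% in stretches of 5 or more and 57.22% among the 374 peaks that stood alone. For 143B these shares were 44.28% and 35.56%. Many neighbouring peaks in stretches had almost the same counts, so the members are not separate observations.

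The 4 stretches with the most peaks had median shifts close to 0 in 143B and a little above 0 in HOS. On chrY:10628681-11742653 the median shift was -0.01 in 143B and 0.29 in HOS, and all 246 peaks were higher in HOS sgNAT10, the lowest by 0.07, which RLE factors turn. At chr17:21888866-21963730, 38 peaks had shifts of -0.08 to -0.03 in 143B and 0.31 to 0.42 in HOS. At chr20:31081212-31232166, 21 peaks had medians of -0.15 in 143B and 0.29 in HOS. The direction of these shifts in 143B turns under upper quartile factors, which add 0.21 to every 143B shift. The 39 peaks at chr10:38498001-38932166 had medians of 0.08 in 143B and 0.21 in HOS.

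Within the large chromosome Y stretch, 27 peaks between positions 11282284 and 11332161 had a DUX4-like pseudogene (a copy related to the homeobox gene DUX4) as their nearest gene. They had medians of 612 counts in 143B sgNAT10 and 230 in 143B NC, and of 252 in HOS sgNAT10 and 101 in HOS NC. Their median shifts were 0.86 in 143B and 0.95 in HOS, against -0.01 and 0.28 for the other 219 peaks of the stretch.

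Other stretches moved more. The chromosome 21 stretch beyond RNA45SN1 was the one lowest in HOS, with a median of -1.29, and had -0.52 in 143B. On chromosome 22, all 8 peaks of chr22:11283644-11571307 were lower in 143B sgNAT10 (median -1.44) and higher in HOS sgNAT10 (median 0.35). DUX4-like pseudogenes were the nearest genes of 6 of these too, so the DUX4-like neighbourhoods of the 2 chromosomes did not move alike in 143B, with medians of 0.86 and -1.47. The 16 peaks at chrY:26638018-26659733 were higher in both, with medians of 0.72 in 143B and 0.98 in HOS. So were the 7 at chr16:33332623-33489469, with 1.01 and 0.63. Of the 5 peaks at chr14:104816269-104862431, 4 were lower in 143B and all were higher in HOS, with medians of -2.10 and 1.93. The 9 peaks at chr16:86624409-87261954 ranged from -3.00 to 2.40 in 143B but from 0.03 to 0.96 in HOS.

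**Figure D2:**
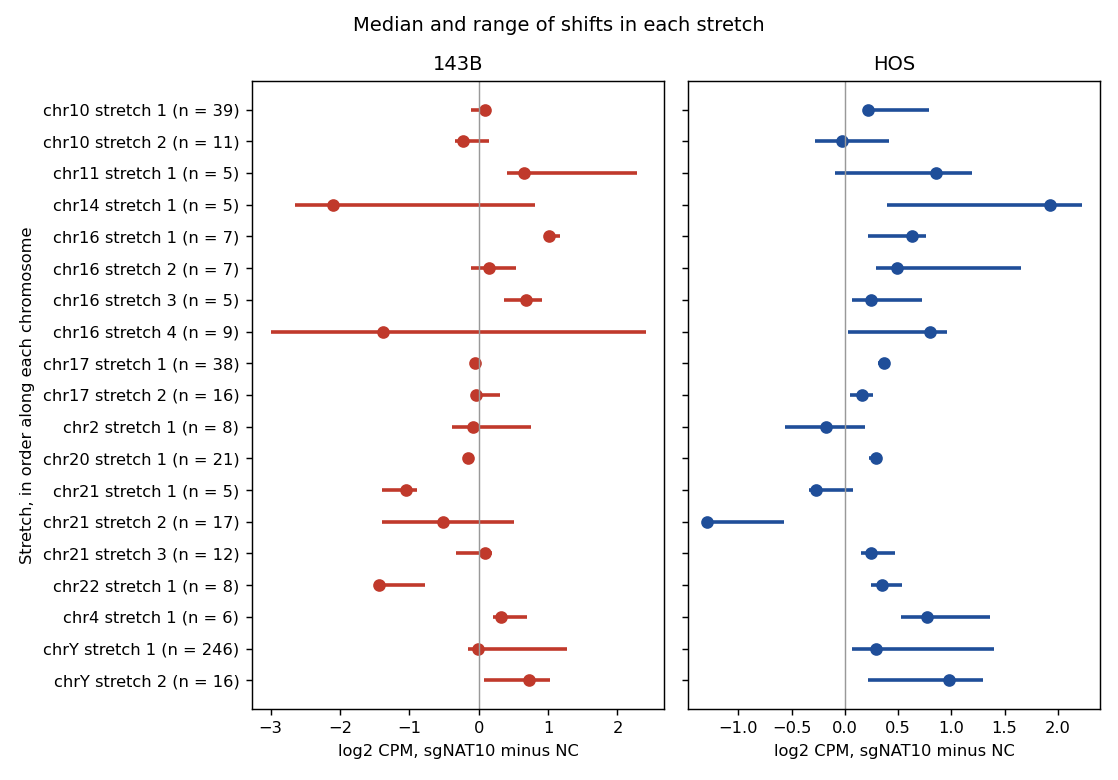
Median (point) and range (line) of the shift in log2 CPM, sgNAT10 minus NC, for the 19 stretches of 5 or more peaks, 143B on the left and HOS on the right, numbered by position along each chromosome. The second chromosome 21 stretch is lowest in HOS (median -1.29), and the chromosome 22 stretch lies below 0 in 143B and above 0 in HOS.

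The genotype effect was tested over both lines with edgeR's quasi-likelihood test, cell line as a block, on all 24467 peaks that passed a filter on low counts. Of the 951 members tested (10 did not pass the filter), 0 were called at a Benjamini-Hochberg adjusted p under 0.05, the same as the 0.0% over all tested peaks, and the smallest adjusted p of a member was 0.444. At an unadjusted p under 0.05 there were 23 members, against 3.86% of all tested peaks. DESeq2 and limma also called 0, with 17 (2.04% of all peaks) and 29 (4.45%) at an unadjusted p under 0.05. Of those 23, 14 lie on the chromosome 21 plateau and share their counts, so they are not separate hits. With 1 library per group and line, this test has 1 residual degree of freedom, and a p that misses the threshold does not show that the levels were equal.

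A 2-fold change stood in for a test within each line. In 143B, 102 members were higher and 127 lower by 2-fold in sgNAT10, against 11.3% and 34.4% of all peaks of mean count 100 or more. In HOS, 110 were higher and 50 lower, against 11.2% and 15.2%. Both lines were higher for 19 members (0.943% of all such peaks) and lower for 4 (3.69%). Lower in 143B with higher in HOS was seen for 45 (7.93%), and the opposite for 0 (1.6%). Neither line reached 2-fold for 640 members, against 42.0% of all such peaks. As shares, 10.6% of the members were higher and 13.2% lower in 143B, and 11.4% higher and 5.2% lower in HOS. For the members as a whole, the higher shares were near the background in both lines, and the lower shares were under it. The higher peaks were not evenly spread. Of the 374 lone peaks, 69 were higher in 143B and 67 in HOS, a larger share than the background in each line. In stretches of 5 or more, 13 of 481 were higher in 143B and 24 in HOS, a smaller share.

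**Figure D3:**
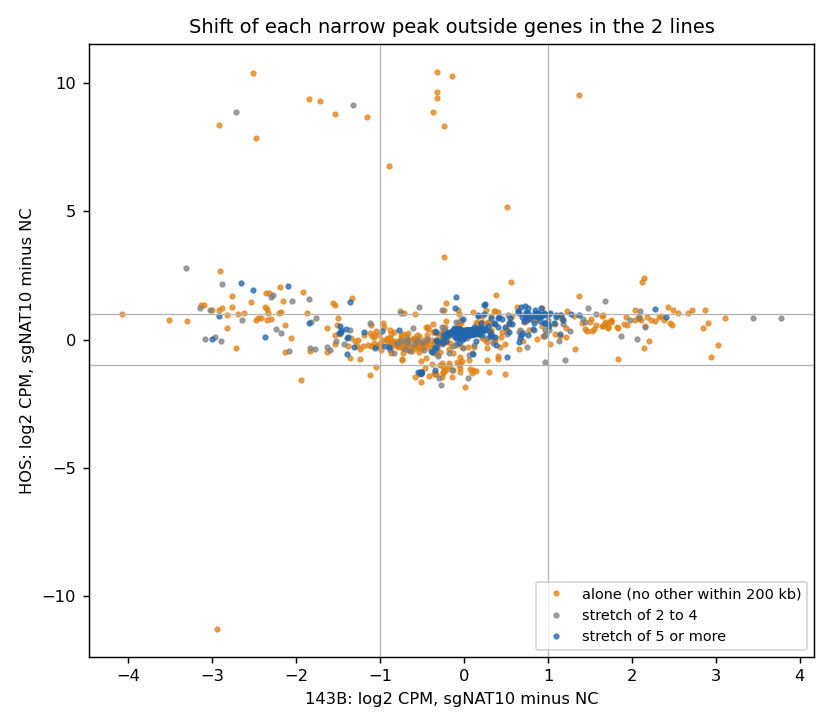
Shift in log2 CPM, sgNAT10 minus NC, of each of the 961 peaks in 143B (x axis) and HOS (y axis), coloured by whether the peak stands alone or in a stretch, with lines at 2-fold. Most peaks in stretches of 5 or more lie near the centre (416 of 481 under 2-fold in both lines), but some whole stretches do not. The peaks spread along x are mostly alone or in small stretches.

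Among the peaks higher in both knockouts, the one at chr10:128464365-128464676 came first. It had 465 counts in 143B sgNAT10 and 74 in 143B NC, and 100 in HOS sgNAT10 and 14 in HOS NC. Its shifts were 2.14 (95% interval 1.80 to 2.53) in 143B and 2.42 (1.67 to 3.41) in HOS, with an unadjusted edgeR p of 0.0228. These intervals are exact binomial and cover counting error only, and copies made by PCR cannot be told from separate molecules here. The peak at chr13:111959912-111960829 is next, 11481 bp from SOX1-OT, a noncoding transcript overlapping the neural factor gene SOX1. It had 373 in 143B sgNAT10 and 60 in 143B NC, and 88 in HOS sgNAT10 and 14 in HOS NC. Both lines were higher in the knockout library for these 2 peaks.

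The pair at chr6:167453017-167453646 and chr6:167453952-167454775 was also higher in both, with shifts of 1.47 and 1.68 in 143B and 1.23 and 1.50 in HOS. At chr6:18368985-18369176, 266 bp from the pseudogene IMPDH1P9, the counts were 1091 in 143B sgNAT10 and 143 in 143B NC, and 1192 in HOS sgNAT10 and 391 in HOS NC. At chr11:2084578-2084772 they were 518 and 75 in 143B sgNAT10 and 143B NC, and 375 and 128 in HOS sgNAT10 and HOS NC. The nearest genes there are MRPL23, a mitochondrial ribosomal protein gene, and the insulin and growth factor locus INS-IGF2, 69634 and 44345 bp away. Another, at chr3:17922616-17922721, had 773 counts in HOS sgNAT10 and 0 in HOS NC, and 2 in 143B sgNAT10 and 0 in 143B NC, so its place rests on 1 library.

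Among peaks lower in both, one between FBXL14, an F-box gene, and WNT5B, a Wnt ligand gene, had the clearest counts. At chr12:1604820-1605448 it had 138 counts in 143B sgNAT10 and 379 in 143B NC, and 70 in HOS sgNAT10 and 164 in HOS NC. Its shifts were -1.95 (-2.25 to -1.67) in 143B and -1.57 (-2.00 to -1.17) in HOS. The peak at chr21:20607348-20607547 had 181 in 143B sgNAT10 and 281 in 143B NC, and 447 in HOS sgNAT10 and 913 in HOS NC. At chr6:27764507-27764705 the shifts were -1.05 in 143B and -1.09 in HOS. The SPRED1 promoter peak at chr15:38252540-38252763, at the gene of an inhibitor of Ras signalling, had 120 in 143B sgNAT10 and 202 in 143B NC, and 363 in HOS sgNAT10 and 485 in HOS NC. The 3 others, at chr5:15091320-15091435, chr10:125281293-125281462 and chr7:74204543-74205193 (7447 bp from EIF4H, a translation factor gene, and 4813 bp from LAT2, an immune adaptor gene), had shifts of -0.74 to -1.37 in 143B and of -0.73 to -0.81 in HOS.

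The lines also moved apart. At chr17:19890401-19890509, between ULK2, an autophagy kinase gene, and AKAP10, an anchoring protein gene, the counts were 1198 in 143B sgNAT10 and 110 in 143B NC, and 397 in HOS sgNAT10 and 497 in HOS NC. The shifts were 2.94 in 143B and -0.67 in HOS. At chr4:61050247-61050355 the counts were 840 in 143B sgNAT10 and 166 in 143B NC, and 301 in HOS sgNAT10 and 395 in HOS NC. At chr19:8720062-8720441, 1193 bp from the olfactory receptor gene OR2Z1, the shifts were 1.20 and -0.79 in 143B and HOS. Near PKP1, a desmosome gene, the peak at chr1:201256740-201257361 had shifts of 0.97 in 143B and -0.87 in HOS.

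The opposite pattern was seen at 2-fold in 45 members, or 4.7%, under the 7.93% of all peaks of mean count 100 or more. At chr20:62384161-62384811, 1492 bp from RPS21-DT, a divergent transcript of a ribosomal protein gene, there were 44 counts in 143B sgNAT10 and 319 in 143B NC, and 1547 in HOS sgNAT10 and 176 in HOS NC. Its shifts were -3.32 (-3.85 to -2.90) in 143B and 2.78 (2.56 to 3.02) in HOS. At chr21:43262463-43262900 the counts were 14 in 143B sgNAT10 and 80 in 143B NC, and 288 in HOS sgNAT10 and 35 in HOS NC. The other 3 named peaks of this kind, on chromosomes 4, 2 and 14, are among those that rest on 1 library, described next. For all 21 named peaks of these lists with more than 3 counts in every library, the direction in each line was the same under RLE, upper quartile and total scaling.

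**Figure D4:**
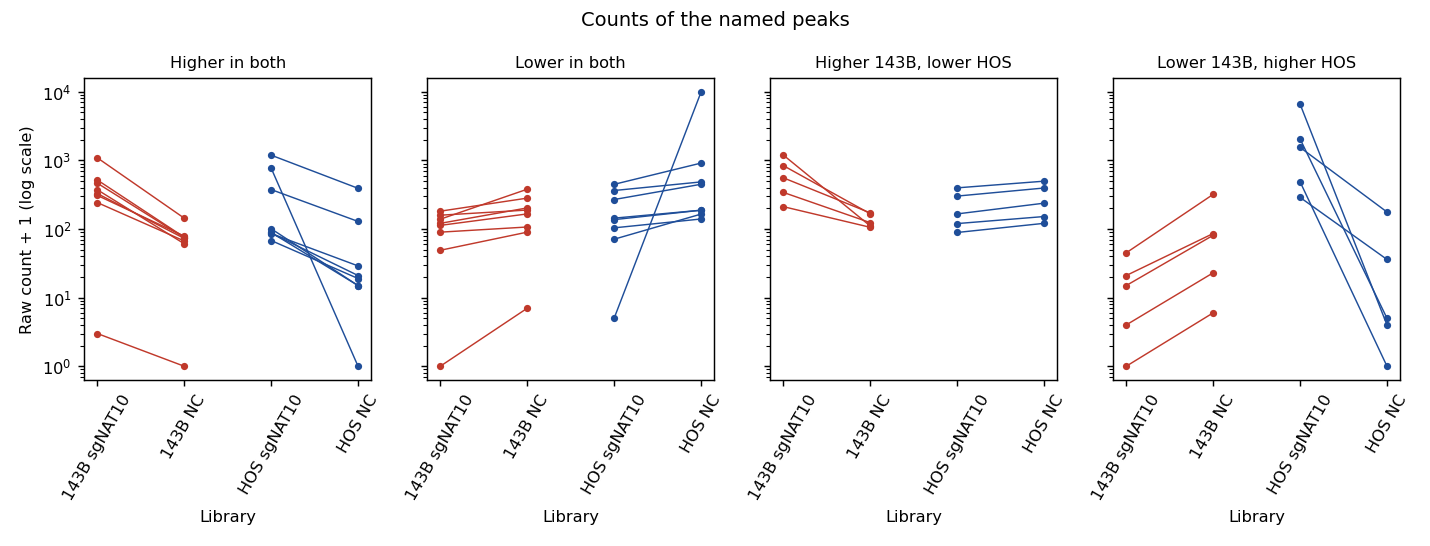
Raw count plus 1 (log scale) of the named peaks in the 4 libraries, with sgNAT10 left of NC in each line and 1 line per peak, in 4 panels by direction of shift. The steepest lines, in HOS, join a library with high counts to one near 0.

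Of the 961 peaks, 18 had at least 90% of their CPM in 1 library, which was HOS sgNAT10 for 17 and HOS NC for 1. The share of all peaks that meet this rule is not given here, so it cannot be called particular to peaks outside genes. Shifts in HOS also reached 10.21 among gene-overlapping narrow peaks of mean count 100 or more. At chr14:84906098-84906202 there were 6614 counts in HOS sgNAT10 and 3 in HOS NC, and 20 in 143B sgNAT10 and 85 in 143B NC. At chr9:122105247-122105434 there were 4477 in HOS sgNAT10 and 7 in HOS NC, and 5 in 143B sgNAT10 and 12 in 143B NC. At chr4:45179783-45179887 there were 2052 in HOS sgNAT10 and 4 in HOS NC. At chr2:123378454-123378635 there were 487 in HOS sgNAT10 and 0 in HOS NC, and 0 in 143B sgNAT10 and 5 in 143B NC. The 1 peak in HOS NC, at chrY:7886103-7886198, had 4 in HOS sgNAT10 and 9886 in HOS NC, and 0 in 143B sgNAT10 and 6 in 143B NC. In both 143B libraries these 18 peaks had at most 85 counts, so nothing about them is repeated in a second line. The peaks at chr3:17922616-17922721 and chrY:7886103-7886198 were among those that the filter of the test across lines left out. Both were called by edgeR when that filter was replaced by a mean count of 100 or more (7 of 5938 peaks called, or 0.118%), and the second also with no filter (0.00319% of peaks called). Each passed the mean count only through the library where it is high, so these calls support nothing about genotype.

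A pair on chromosome 2 that no list names stood out and was chosen after its values were seen. The peaks at chr2:32916233-32916351 and chr2:32916486-32916593, 10736 and 10494 bp upstream of LOC100271832, had 59477 and 47701 counts in 143B sgNAT10, and 143987 and 120584 in 143B NC. In HOS sgNAT10 they had 52593 and 42966, and 52757 and 42616 in HOS NC. They were lower in 143B sgNAT10, by shifts of -1.77 and -1.84, and their shifts in HOS were -0.36 and -0.34, which turn positive with library totals.

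Width set apart some of the 374 peaks that stood alone. The width bands given here were chosen after the values were seen. Of these peaks, 153 were 180 to 200 bp wide. In 143B, 40 of them were higher and 11 lower by 2-fold, against 29 higher and 70 lower among the other 221. As shares of the 153, these are 26.1% and 7.2%, against 11.3% and 34.4% of all peaks of mean count 100 or more. The 40, picked by their shift in 143B, had shifts of 1.14 to 3.10 in 143B and a median of 0.75 in HOS, with 38 above 0. The remaining 113 had a median of -0.59 in 143B and -0.16 in HOS. The C18orf63 promoter peak at chr18:74315436-74315625 is one of the 40, with 1655 counts in 143B sgNAT10 and 183 in 143B NC, and 1093 in HOS sgNAT10 and 412 in HOS NC.

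Lone peaks of 300 bp or wider, 108 in all, had a median of -0.24 in 143B and, with 82.41% of them above 0, of 0.67 in HOS. By 2-fold, 35 were higher and 1 lower in HOS, and 15 higher and 45 lower in 143B. Of the 45, 23 were higher by 2-fold in HOS, or 21.3% of the 108, against 7.93% of all peaks of mean count 100 or more. Among all such peaks, 471 of the 2042 lower in 143B were higher in HOS. Of those 471, 231 were among the 4048 narrow peaks that overlap genes. The 45 members of opposite direction counted earlier, of 961, are also among the 471, and the rest were other peaks. The background thus pools peaks of all widths, up to 65430 bp, and its share among peaks of similar width was not compared. The pattern is therefore not shown to be particular to lone peaks outside genes. As shares of the 108, 32.4% were higher and 0.9% lower in HOS, against 11.2% and 15.2% of all peaks of mean count 100 or more. In 143B, 13.9% were higher and 41.7% lower, against 11.3% and 34.4%. The LINC02076 promoter peak is one of those 23, and the promoter peaks of LINC01970 and LOC124904336, which are outside this class, moved the same way. LINC01970 had 23 in 143B sgNAT10 and 88 in 143B NC, and 261 in HOS sgNAT10 and 84 in HOS NC. LOC124904336, the guanine-rich one, had 53 in 143B sgNAT10 and 188 in 143B NC, and 307 in HOS sgNAT10 and 75 in HOS NC. LINC02076 had 75 in 143B sgNAT10 and 159 in 143B NC, and 156 in HOS sgNAT10 and 45 in HOS NC. The NME8 peak, at a gene of sperm flagella and cilia, had 289 in 143B sgNAT10 and 215 in 143B NC, and 200 in HOS sgNAT10 and 70 in HOS NC.

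Position relative to the last annotated gene end of each chromosome and to genes was compared in the same way. The other end of the chromosome was not considered, so peaks near it count as farther away. The 34 lone peaks within 5 Mb of the last annotated gene end had a median of -0.88 in 143B, against -0.30 for the 340 farther away. The 34 were also wider, with a median of 470 bp against 197 bp, and width and position were not separated. In HOS the medians were 0.70 and 0.14. Lone peaks within 10 kb of a gene with a known strand had medians of -0.48 in 143B and 0.17 in HOS when upstream (46 peaks), and of -0.56 and -0.08 when downstream (43 peaks). Among all members, lone or not, the 7 nearest to a mitochondrial pseudogene, with 2 on the chromosome 21 plateau among them, had medians of -0.52 in 143B and -0.27 in HOS. Library totals add about 0.3 to each 143B shift and about 0.6 to each HOS shift, so group medians below 0 by less than that turn under this scaling.

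At the count limit, 3 members just inside were at chr2:125923068-125923265 (97 in 143B sgNAT10, 120 in 143B NC, 96 in HOS sgNAT10 and 87 in HOS NC), chr2:95759316-95760112 and chr2:90388583-90388724, with shifts of -0.80, 1.75 and 0.38 in 143B. Just outside were the peaks at chr1:143263624-143263800 (188 in 143B sgNAT10, 89 in 143B NC, 78 in HOS sgNAT10 and 44 in HOS NC), chr6:18847736-18848201 and chr14:100678426-100679348, with shifts of 0.58, 0.33 and -1.38. Values on both sides of the limit overlapped.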

How the data were processed

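The deposited values are raw counts of reads per peak, in 1 table for each cell line with the same intervals, and the tables' names are the basis for reading their columns as acRIP. Per the submitters' processing notes, the build was GRCh38 and the tools included FastQC, STAR, SAMtools and deepTools. How peaks were called and reads counted, on which strand and with what rule for multi-mapping reads, is not given in the sources used here, nor is whether starts count from 0 or 1. The 4 input samples were not used here. Intervals were set against the spans of 59792 genes in a RefSeq table. The members and lists were chosen with earlier results of these data known.

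Counts were analysed with edgeR 4.0.16 in R 4.3.3 (TMM, filterByExpr, cell line as a block, Benjamini-Hochberg adjustment over all peaks tested), which was tested on simulated data. Within a line there is 1 library per group, so shifts are differences in log2 CPM with a prior count of 1 and no test. Alternatives were RLE, upper quartile and total scaling, DESeq2 1.42.0, limma 3.58.1, other filters, prior counts and membership limits. Named peaks were the 12 highest by mean count, the 8 with the largest shift in the same direction in both lines upward and the 8 downward, the 5 in each opposite direction, the peaks in promoter windows and 3 on each side of the count limit. One peak of the upward list is not reported here.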

Additional observations from a re-analysis of the deposited data

Results flagged for a closer look

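For 45 peaks, counts were at least 2-fold lower in 143B sgNAT10 and at least 2-fold higher in HOS sgNAT10 than in the NC library of the same line. The lines moved in opposite directions, and with 1 library per group the difference was not tested. The 45 are 4.7% of the members, under the 7.93% of all peaks of mean count 100 or more.

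For the named peaks of opposite direction, the shift in HOS minus that in 143B was -1.84 at chr1:201256740-201257361, -1.99 at chr19:8720062-8720441, -2.58 at chr4:61050247-61050355, -3.61 at chr17:19890401-19890509 and -1.2 at chr21:9009289-9009399. It was 6.1 at chr20:62384161-62384811 and 5.57 at chr21:43262463-43262900. It was 11.31 at chr4:45179783-45179887, 11.6 at chr2:123378454-123378635 and 12.92 at chr14:84906098-84906202, where HOS NC had 4, 0 and 3 counts and the size depends on the prior count.

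In 3 stretches every peak was lower in 143B sgNAT10 and higher in HOS sgNAT10. The median in HOS minus that in 143B was 0.43 for chr17:21888866-21963730, 0.45 for chr20:31081212-31232166 and 1.79 for chr22:11283644-11571307. Upper quartile or total scaling turns the 143B shifts above 0 for the stretches on chromosomes 17 and 20, but not for that on chromosome 22. None of these differences was tested.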

How the results depend on the processing

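No paired analysis was possible because the labels give no replicate numbers, other than pairing by cell line, which is the block of the test across lines. The count of called members was 0 under RLE, upper quartile and total scaling, DESeq2, limma and no line block (10 to 43 at an unadjusted p under 0.05), 1 with no filter and 2 with a mean count of at least 100 as the filter. The median shift in 143B (-0.04) was -0.1261 with RLE, 0.1707 with upper quartile scaling and 0.305 when only totals were used. It was -0.0196 at a mean count of 50 or more, -0.0739 with 1 peak per cluster, and, in settings chosen after seeing the data, -0.298 with 1 per stretch and -0.3429 for lone peaks. The median in HOS (0.28) was 0.1208, 0.1826 and 0.8576 under the same 3 scalings, 0.3224 at 50 or more, 0.2633 at 200 or more, 0.263 per cluster, 0.2042 per stretch and 0.1902 for lone peaks. With library totals, members higher by 2-fold numbered 160 in 143B (102 with TMM) and 287 in HOS (110), and those lower in HOS numbered 4 (50). This scaling adds 0.33 to every 143B shift and 0.55 to every HOS shift, for members and other peaks alike. The shares of all peaks under it are not given here, so these numbers have no background beside them. With TMM, 69 of the 374 lone peaks were higher and 81 lower in 143B, and 67 were higher and 31 lower in HOS. Over all peaks of mean count 100 or more, 11.3% were higher and 34.4% lower in 143B, and 11.2% and 15.2% in HOS. In these medians and 2-fold counts, other scaling factors move all shifts of a line by a nearly constant amount, and other limits change the members. The calls made with other filters fell on peaks that the main filter left out. Low counts limit the peaks near 100.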
